A study of Mus musculus with 2 samples.

Results

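Interleukin-2 and interleukin-15 are related cytokines that act on lymphocytes through shared receptor chains, and 6 genes encode the system: the ligands Il2 and Il15, the private alpha chains Il2ra and Il15ra, and the shared chains Il2rb and Il2rg. They were taken by symbol, as 6 of 32285 genes counted in each library. The RNA came from CD45+ cells, that is leukocytes, sorted out of B16-F10 tumors; B16-F10 is a melanoma line of the mouse. The cells were captured in droplets for single-cell sequencing. The DOPAC library came from WT mice treated with DOPAC (3,4-dihydroxyphenylacetic acid), which forms when dopamine is degraded, and the Control library from WT mice treated with vehicle; dose, time and age are not given in the labels. The design text speaks of 4 mice per group, but each group is 1 library with no tag for the mouse, so no test between treatments was possible and every interval below covers counting error only.

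T cells that have just met antigen are the classical source of IL-2, whereas IL-15 is made mainly by macrophages, monocytes and dendritic cells, which carry it to neighbouring cells bound to their own IL-15 receptor alpha chain. Signals of both cytokines pass through the beta and gamma chains to the kinases JAK1 and JAK3 and the transcription factor STAT5. The IL-2 receptor alpha chain raises the affinity for IL-2 and is abundant on regulatory T cells, which consume the cytokine. NK cells and memory-type CD8 T cells depend on IL-15 for survival.

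In the RefSeq table for mouse (GRCm38.p6), 4 of the 6 genes had a promoter window, of 250 bases before to 50 bases after a start site, and Il15 and Il2rb had none. Windows of Il2 and of the alpha chains are shown because the results below turn on their levels in single cell classes. Capitals mark every match, on either strand, to 5 motifs searched: GGAAAA (the NFAT core), the NF-kappaB consensus, TGANTCA (AP-1), AAANNGAAA (an IRF-type repeat) and TTCNNNGAA (a STAT-type dimer). Opposite-strand matches read as the reverse complement. The windows lie at chr3:37125905-37126204 on the minus strand for Il2, chr2:11642542-11642841 on the plus strand for Il2ra, and chr2:11705043-11705342 and chr2:11705462-11705761 on the plus strand for the 2 starts of Il15ra.
Il2: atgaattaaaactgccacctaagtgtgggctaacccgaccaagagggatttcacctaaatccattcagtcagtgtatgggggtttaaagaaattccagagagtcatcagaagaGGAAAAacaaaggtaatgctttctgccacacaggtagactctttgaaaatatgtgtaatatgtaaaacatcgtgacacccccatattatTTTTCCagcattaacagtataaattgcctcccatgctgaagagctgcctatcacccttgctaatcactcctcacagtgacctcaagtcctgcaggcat
Il2ra: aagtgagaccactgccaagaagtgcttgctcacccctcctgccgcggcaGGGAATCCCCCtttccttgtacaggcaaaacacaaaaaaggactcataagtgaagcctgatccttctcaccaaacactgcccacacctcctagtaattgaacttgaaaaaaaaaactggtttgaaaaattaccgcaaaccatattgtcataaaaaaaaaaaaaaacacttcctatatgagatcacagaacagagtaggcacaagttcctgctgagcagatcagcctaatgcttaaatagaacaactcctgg
Il15ra start 1: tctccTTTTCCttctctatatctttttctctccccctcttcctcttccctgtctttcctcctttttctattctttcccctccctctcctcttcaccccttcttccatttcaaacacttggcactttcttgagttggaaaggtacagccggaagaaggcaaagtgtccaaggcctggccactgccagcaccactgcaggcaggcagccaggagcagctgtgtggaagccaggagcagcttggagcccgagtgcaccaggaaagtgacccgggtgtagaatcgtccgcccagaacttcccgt
Il15ra start 2: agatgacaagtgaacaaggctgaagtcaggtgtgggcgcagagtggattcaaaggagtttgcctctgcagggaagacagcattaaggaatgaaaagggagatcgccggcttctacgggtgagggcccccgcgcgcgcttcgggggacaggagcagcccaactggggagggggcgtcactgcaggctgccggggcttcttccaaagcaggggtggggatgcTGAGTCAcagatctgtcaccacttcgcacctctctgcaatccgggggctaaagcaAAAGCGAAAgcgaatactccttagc
The Il2 window held 2 matches to GGAAAA, a motif in 23.4% of 32851 promoter windows of the same length. The Il2ra window held 3 overlapping matches to the NF-kappaB consensus, present in 8.46% of windows. The first Il15ra window held GGAAAA only, whereas the second held TGANTCA and AAANNGAAA, present in 7.81% and 10.6% of windows. TTCNNNGAA, present in 8.30% of all windows, matched none of the 4 windows shown. These matches describe the letters of the windows.

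On GRCm38, Il2ra (chr2:11642807-11693193) and Il15ra (chr2:11705290-11734317) lie side by side on the plus strand, with 12096 bases between them. The other genes lie apart, Il2 at chr3:37120523-37125959, Il15 at chr8:82331632-82403222, Il2rb at chr15:78479256-78495271 and Il2rg at chrX:101264378-101268255, all on the minus strand. Il2 overlaps Adad1 on the opposite strand, and use of strand in counting is not given in the sources used here.

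The DOPAC library held 10777 barcodes with 47769958 UMIs (unique molecular identifiers, 1 per captured RNA molecule) and the Control library 9629 barcodes with 100938364 UMIs; 32 barcodes occurred in both. After filtering, 10095 DOPAC cells (median 3677.0 UMIs) and 8444 Control cells (median 9571.5 UMIs) remained. Classes were gated on summed UMIs of lineage markers. T cells numbered 4344 in the DOPAC library and 1431 in the Control library, NK cells 692 and 831, dendritic cells 372 and 1512, and macrophages 443 and 1436. Among T cells, regulatory T cells (Foxp3 UMI, no Cd8a or Cd8b1 UMI) numbered 59 in the DOPAC library and 69 in the Control library. The labels call the cells lymphocytes, yet myeloid classes were present in both libraries. No class was assigned to 3533 DOPAC cells (35.0%) and 1539 Control cells (18.2%). Levels are CPM, the UMIs of a gene over all UMIs summed over the cells of a class and scaled to counts per 1000000, and ratios are DOPAC over Control.

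The gated classes carried RNA of markers that the gates had not used, but Gzmb and Itgax did not single out NK cells or macrophages. Gzmb, a killing enzyme of cytotoxic lymphocytes, was at 734 CPM in DOPAC NK cells and 398 CPM in Control NK cells. It was higher in regulatory T cells, at 936 CPM in the DOPAC library and 643 CPM in the Control library. T cells had 1151 CPM in the DOPAC library and 244 CPM in the Control library. Itgax, the CD11c chain, was at 26.0 CPM in DOPAC macrophages and 27.2 CPM in Control macrophages. Itgax was higher in NK cells (56.2 and 55.1 CPM) and dendritic cells (53.4 and 50.9 CPM) of the DOPAC and Control libraries. In T cells it was lower, at 6.55 and 10.3 CPM in the DOPAC and Control libraries. Cd3e, a chain of the T-cell receptor complex and itself a gating marker, was at 26.8 CPM in DOPAC macrophages and 3.94 CPM in Control macrophages, against 571 and 304 CPM in regulatory T cells of the DOPAC and Control libraries.

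Il15 RNA was the myeloid ligand of the set, and it was higher in DOPAC than in Control in macrophages, monocytes and 3 kinds of dendritic cells. In macrophages, defined by complement C1q genes, it was at 169 CPM (468 UMIs) in the DOPAC library and 65.4 CPM (1645 UMIs) in the Control library, 2.59-fold higher (interval 2.33 to 2.87). Monocyte-type cells had 181 CPM in the DOPAC library and 88.8 CPM in the Control library, a ratio of 2.03 (1.83 to 2.26). Both classes therefore stood apart between the libraries by more than counting error.

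Some gated cells held RNA of the tumor itself. The pigment-cell genes Pmel, Mlana and Dct, 3 markers of melanoma, summed to 55.2 CPM in mature dendritic cells of the DOPAC library and 1044 CPM in those of the Control library. In the Control library, 6610 of the 6650 UMIs behind that sum lay in 15 of 366 cells with 3 or more such UMIs each (median 84753 UMIs of all genes), which held 16.7% of the UMIs of the class. In the DOPAC library 1 of 110 cells had 3 or more. In cDC1 the sum was at 0.951 CPM in the DOPAC library and 6.80 CPM in the Control library, in cDC2 at 3.48 and 6.58 CPM, in plasmacytoid dendritic cells at 4.84 and 166 CPM (800 of 828 Control UMIs in 1 cell), and in macrophages at 13.4 and 12.1 CPM in the DOPAC and Control libraries. Values of mature dendritic cells are therefore also given without cells of 3 or more melanoma-gene UMIs, a limit set after the data were seen.

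Mature dendritic cells (Fscn1 or Ccr7), which carry antigen to lymph nodes and prime T cells there, had 147 CPM of Il15 in the DOPAC library and 55.4 CPM in the Control library, 2.65-fold higher (2.06 to 3.36). Without the cells with melanoma RNA, the values were 148 CPM in the DOPAC library and 64.1 CPM in the Control library, 2.32-fold higher (1.81 to 2.95). In cDC1, the subset that presents antigen to CD8 T cells, Il15 was at 41.8 CPM (44 UMIs) in the DOPAC library and 9.02 CPM (61 UMIs) in the Control library, 4.64-fold higher (3.07 to 6.95). In cDC2, which present antigen mainly to CD4 T cells, the values were 62.7 CPM (18 UMIs) in the DOPAC library and 7.22 CPM (34 UMIs) in the Control library, 8.69-fold higher (4.62 to 15.8). Plasmacytoid dendritic cells had 0 UMIs of Il15 in 50 DOPAC cells and 17 UMIs (3.41 CPM) in 427 Control cells, and 3 counts in the DOPAC sum would have been above the Control level, so no difference was detectable at this depth. Myeloid markers were counted in the dendritic classes too. The 6 markers together were at 12.5% of their macrophage level in DOPAC cDC1 and 9.55% in Control cDC1. Il15 was at 24.7% and 13.8% of its macrophage level in the DOPAC and Control cDC1. In cDC2 the markers stood at 27.0% and Il15 at 37.0% in the DOPAC library, and at 15.8% and 11.0% in the Control library. Whether the marker RNA came from macrophages or from the dendritic cells themselves was not tested, nor was the part of macrophage RNA in the cDC1 and cDC2 ratios. For mature dendritic cells the marker sum was 9.13% in the DOPAC library and 9.01% in the Control library, against 86.6% and 84.7% for Il15; without the cells with melanoma RNA, Il15 was at 88.2% in the DOPAC library and 97.3% in the Control library.

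The share of cells with an Il15 UMI depends on depth, and without thinning it was 38.6% of 443 DOPAC macrophages (median 5527 UMIs) and 42.9% of 1436 Control macrophages (median 15533 UMIs). After each cell was thinned to 1000 UMIs, 13.0% of 440 DOPAC macrophages (exact Clopper-Pearson interval 9.96 to 16.5) and 6.43% of 1431 Control macrophages (5.21 to 7.83) held an Il15 UMI. For mature dendritic cells 22 of 110 thinned cells in the DOPAC library (interval 13.0% to 28.7%) and 16 of 363 in the Control library (4.41%, 2.54 to 7.06) held one. Averaged over every possible draw of 1000 UMIs, the share was 13.5% in the DOPAC library and 5.92% in the Control library, so the draw shown gave a larger gap than the average one. For macrophages the averages were 14.0% in the DOPAC library and 6.08% in the Control library. In B cells, which served as the low class, 0 of 25 thinned DOPAC cells, which allows a share of up to 12.0% (3 cells of the total), and 1 of 645 Control cells (0.155%) held one.

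Macrophages were split by Cxcl9, a chemokine induced by interferon gamma. DOPAC macrophages with Cxcl9 had 138 CPM of Il15 and those without it 216 CPM, a ratio of 0.642 (0.533 to 0.772). Control macrophages with Cxcl9 had 73.5 CPM and those without it 62.2 CPM, a ratio of 1.18 (1.06 to 1.31). Il15 was thus lower with Cxcl9 in the DOPAC library and higher with it in the Control library. Within cells with Cxcl9 the DOPAC level was 1.88-fold the Control level (1.61 to 2.20), and within cells without it 3.47-fold, with an interval up to 3.99. The Cxcl9-positive share of macrophages was 231 of 443 cells in the DOPAC library and 364 of 1436 in the Control library. This share and the split rest on 1 Cxcl9 UMI or none, and so depend on depth.

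**Figure D1:**
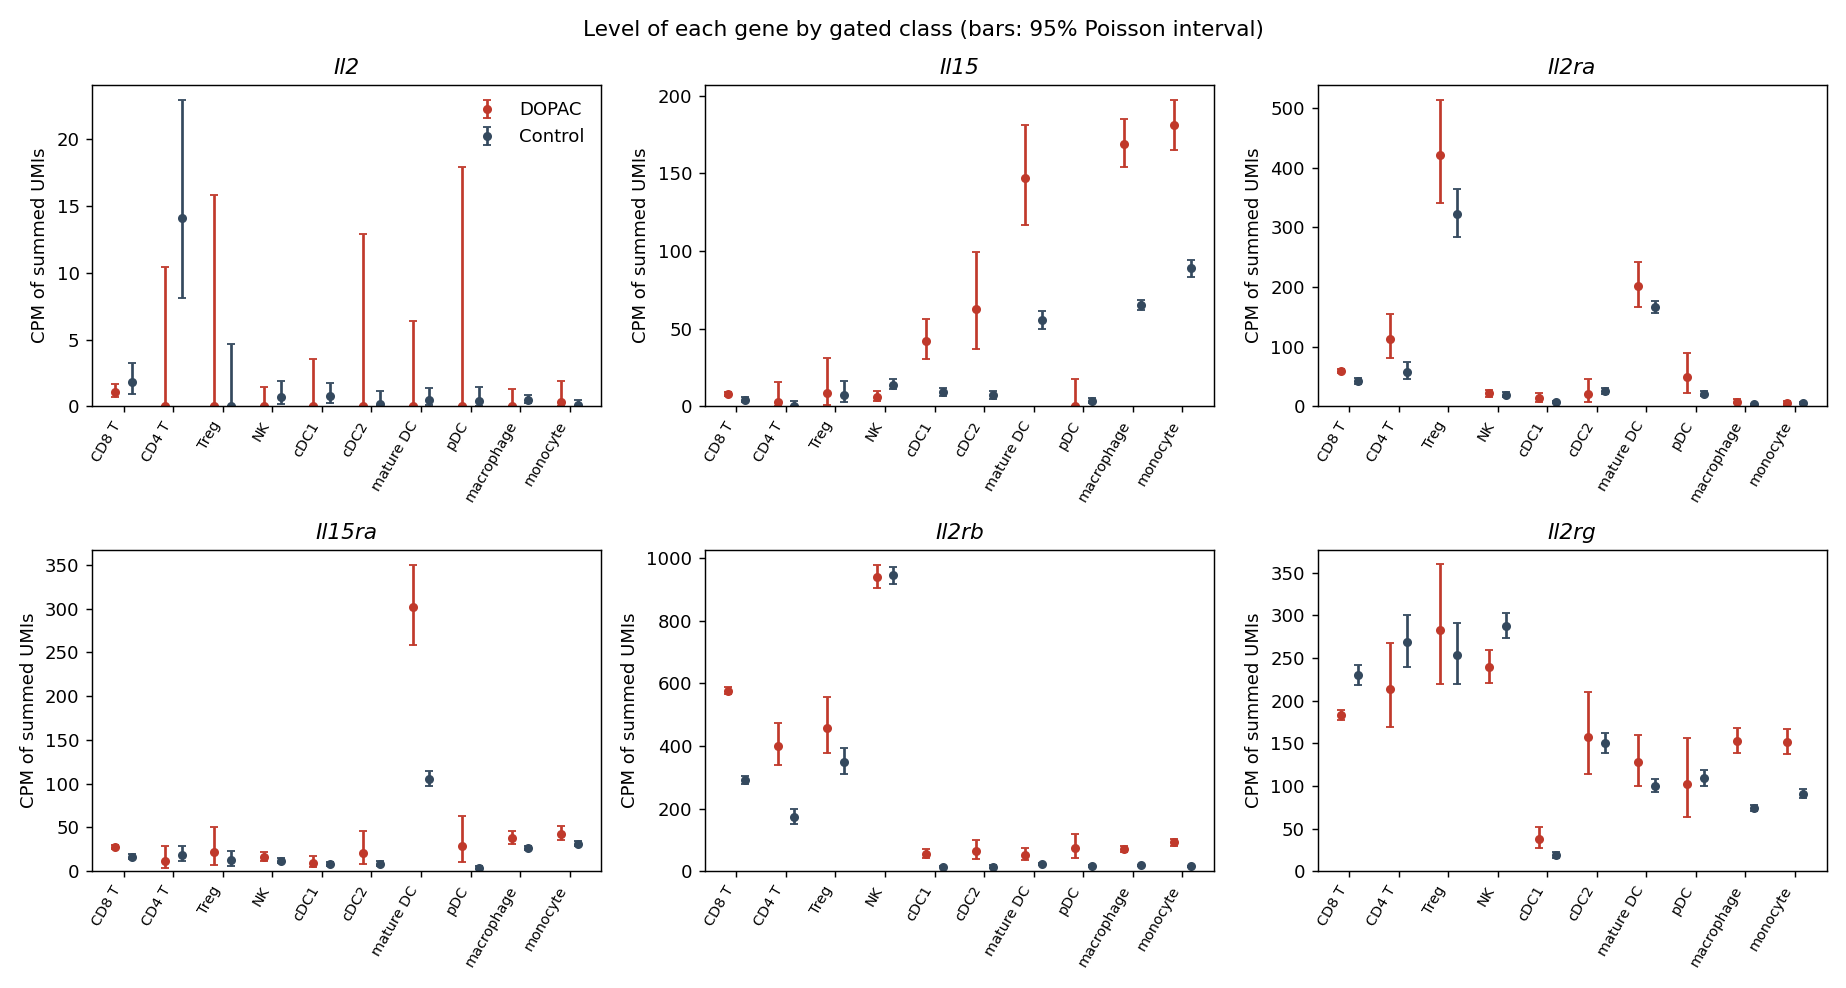
Level of each gene in CPM of summed UMIs (y axis, linear) by gated class (x axis), in the DOPAC library (red, left point) and the Control library (dark blue, right point), with bars for the 95% Poisson interval. Il15 was highest in monocyte-type cells and macrophages in both libraries, and Il2rb was highest in NK cells, at 941 CPM in the DOPAC library and 945 CPM in the Control library.

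Lymphocytes held little Il15 RNA. T cells had 8.58 CPM in the DOPAC library and 3.42 CPM in the Control library, 2.51-fold higher (1.78 to 3.62), which was 5.07% and 5.22% of the macrophage level in the DOPAC and Control libraries. The 6 myeloid markers (Lyz2, Apoe, Ctss, Csf1r, C1qb and Ms4a7) together were at 5.56% of their macrophage level in DOPAC T cells and 5.06% in Control T cells, with single markers at 1.94% to 7.14% and 2.49% to 12.8%. Il15 in T cells thus stood at about the same percent of its macrophage level as the myeloid markers did in both libraries, and the part of myeloid RNA in the T-cell ratio was not tested.

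NK cells differed in this respect. They had 6.16 CPM of Il15 (16 UMIs in 14 of 692 cells) in the DOPAC library and 13.9 CPM (76 UMIs in 58 of 831 cells) in the Control library, 2.26-fold lower in DOPAC (1.31 to 4.15). The Control level was 21.3% of the macrophage level, above all 6 myeloid markers in those cells (1.90% to 8.12%), whereas the DOPAC level was 3.64%, within the range of the markers (1.05% to 6.30%). When cells were thinned to 1000 UMIs before gating, 5 UMIs in 237 DOPAC cells against 4 UMIs in 285 Control cells remained and the log2 ratio turned to 0.53, so the direction was not settled at equal depth. The thinned shares of the NK cells gated at full depth were 0.727% in the DOPAC library (0.236 to 1.69) and 1.56% in the Control library (0.836 to 2.66), and the intervals overlapped.

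Il15ra, the chain that presents IL-15, had its highest level in mature dendritic cells in both libraries, where it was at 302 CPM (175 UMIs) in the DOPAC library and 105 CPM (672 UMIs) in the Control library, 2.86-fold higher (2.41 to 3.38). Without the cells with melanoma RNA it was at 306 CPM in the DOPAC library and 125 CPM in the Control library, 2.45-fold higher (2.06 to 2.90). Next came monocyte-type cells, with 42.9 CPM in the DOPAC library and 31.5 CPM in the Control library (ratio 1.36, 1.10 to 1.68), and macrophages, with 38.0 CPM and 26.2 CPM in the DOPAC and Control libraries (ratio 1.45, 1.17 to 1.78). The mature dendritic level was 7.95 times the macrophage level in the DOPAC library (6.20 to 10.2) and 4.02 times it in the Control library (3.61 to 4.49), or 8.01 and 4.72 times without the cells with melanoma RNA in the DOPAC and Control libraries. In cDC1 the gene was low, at 9.51 CPM (10 UMIs) in the DOPAC library and 7.84 CPM in the Control library.

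CD8 T cells had 27.6 CPM of Il15ra in the DOPAC library and 16.5 CPM in the Control library, 1.66-fold higher (1.34 to 2.08). Composition differed within the CD8 class: naive-gene cells (Lef1 or Tcf7 without Pdcd1 or Havcr2) numbered 222 in the DOPAC library and 493 in the Control library, and checkpoint-gene cells (Pdcd1 or Havcr2 without Lef1 or Tcf7) 2007 and 40. Both gates rest in part on absent UMIs, which depend on depth. Naive-gene cells had a median of 3575 UMIs in the DOPAC library and 7450 UMIs in the Control library. Naive-gene cells had 29.8 CPM in the DOPAC library and 11.8 CPM in the Control library (ratio 2.52, 1.52 to 4.12), whereas checkpoint-gene cells had 25.7 CPM in the DOPAC library and 47.3 CPM (24 UMIs) in the Control library (ratio 0.544, 0.359 to 0.861). The ratio in naive-gene cells turned to -0.32 on the log2 scale after thinning before gating, on 0 UMIs in 38 DOPAC cells and 1 UMI in 61 Control cells.

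Cells that present IL-15 do so with ligand and alpha chain made in the same cell, and RNA of both was counted per cell. Without thinning, 28 of 110 mature DOPAC cells (25.5%, 17.6 to 34.6) and 123 of 366 mature Control cells (33.6%, 28.8 to 38.7) held UMIs of both Il15 and Il15ra. At 1000 UMIs per cell the shares were 6.36% in the DOPAC library (7 cells, 2.60 to 12.7) and 1.38% in the Control library (5 cells, 0.449 to 3.18). The share was thus lower in DOPAC without thinning and higher after it. The intervals overlapped both times, which does not settle whether the shares differ, and the difference was not tested. In thinned macrophages, 0 of 440 DOPAC cells, which allows up to 0.682%, and 6 of 1431 Control cells (0.419%) held both.

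**Figure D2:**
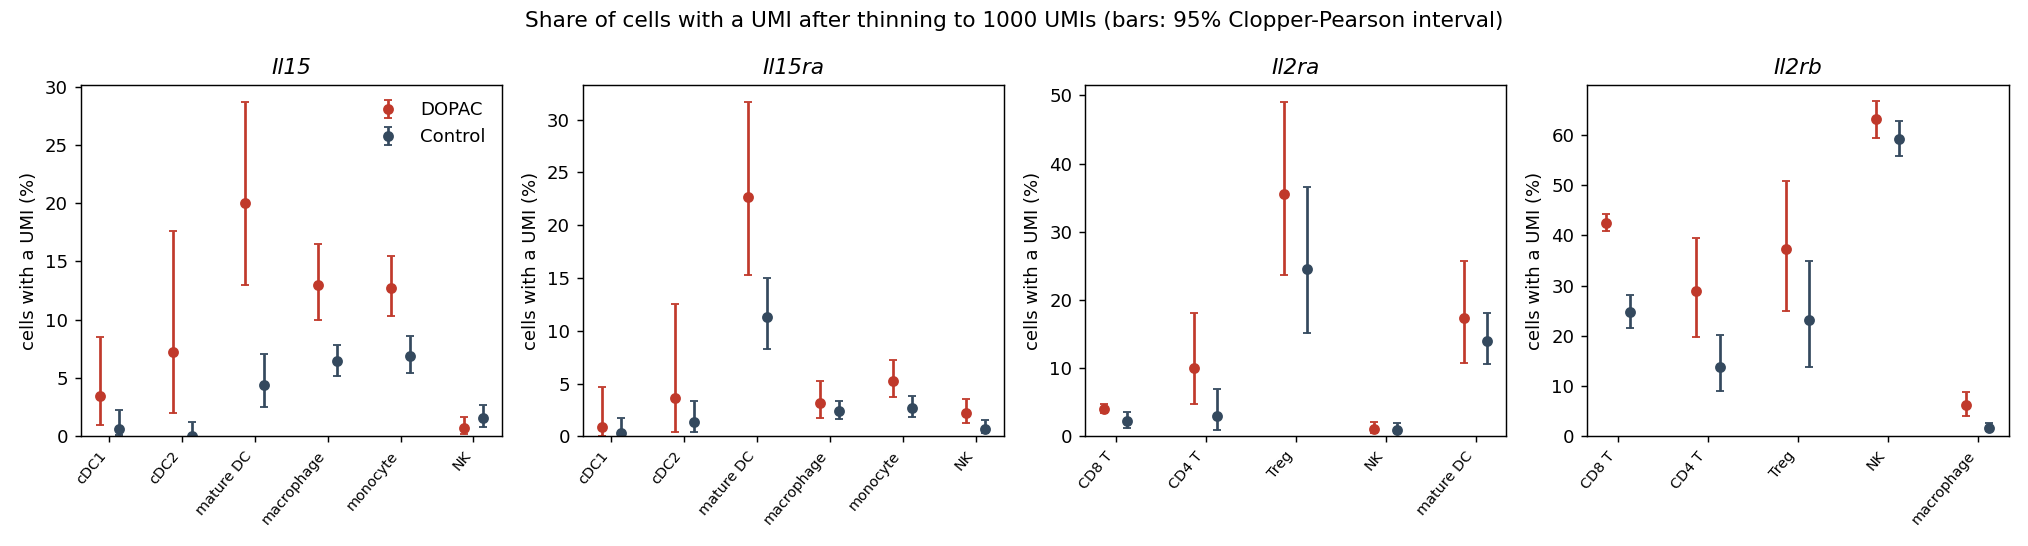
Percent of cells with at least 1 UMI of Il15, Il15ra, Il2ra and Il2rb (y axes) by class (x axes) after every cell was thinned to 1000 UMIs, in the DOPAC library (red, left) and the Control library (dark blue, right), with 95% Clopper-Pearson intervals. Mature dendritic cells with Il15 numbered 22 of 110 in the DOPAC library and 16 of 363 in the Control library, whereas the intervals for Il2rb in NK cells overlapped.

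Il2, the T-cell ligand, was scarce in both libraries. T cells held 25 UMIs in the DOPAC library (1.06 CPM) and 63 UMIs in the Control library (5.38 CPM), 5.09-fold lower in DOPAC (3.16 to 8.45). All 25 DOPAC cells with Il2 held 1 UMI each. Of 33 Control cells with Il2, 28 held 1 UMI and a single cell held 27. Without the T cell with the most Il2 UMIs in each library, 24 UMIs in the DOPAC library and 36 UMIs in the Control library were left, and DOPAC was 3.04-fold lower (1.76 to 5.32). After thinning to 1000 UMIs, 3 of 4300 DOPAC T cells (0.0698%, 0.0144 to 0.204) and 10 of 1430 Control T cells (0.699%, 0.336 to 1.28) held an Il2 UMI. Averaged over every possible draw, the shares were 0.121% in the DOPAC library and 0.418% in the Control library.

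The cells with Il2 belonged to different T classes. In the DOPAC library 22 were CD8 T cells, 0 were CD4 T cells without Foxp3 and 3 were other T cells. In the Control library 11 were CD8 T cells, 14 were CD4 T cells without Foxp3 and 8 were other T cells. The make-up of all T cells differed too, with 3364 of 4344 in the CD8 class in the DOPAC library and 684 of 1431 in the Control library. The part of this make-up in the counts and in the T-cell ratio of Il2 was not tested. CD4 T cells without Foxp3 had 0 UMIs among 91 DOPAC cells and 16 UMIs (14.1 CPM) among 165 Control cells. With 3 counts taken as the floor of the DOPAC sum, this gave a bound of at least 1.67-fold lower in DOPAC, not a measured ratio. The counting interval of the ratio began at 1.21-fold lower. For CD8 T cells the values were 1.09 CPM (22 UMIs) in the DOPAC library and 1.82 CPM (11 UMIs) in the Control library, and the interval of the ratio included 1 (0.278 to 1.37). No regulatory T cell of either library held an Il2 UMI, which at full depth covers 59 DOPAC and 69 Control cells. Macrophages, which should lack the gene, had 0 UMIs in the DOPAC library and 12 UMIs (0.477 CPM) in the Control library. There 3 counts in the DOPAC sum would be 1.09 CPM, above the Control level, so no difference was detectable.

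Genes that accompanied Il2 were ranked by summed CPM in Il2-positive over other T cells of the same library. In the DOPAC library Rasa3 led (145 CPM in the Il2-positive cells and 39.8 CPM in the others), and Xcl1, a chemokine that attracts cDC1, was at 540 and 225 CPM. In the Control library Angpt1 and Ccl1 led, each from 1 cell of 33, and Tnfsf11 (RANK ligand) was at 155 CPM in the Il2-positive and 21.6 CPM in the other cells. Ifng, the interferon of activated T cells, was found in 13 of 25 DOPAC cells with Il2 (349 CPM, against 181 CPM in other T cells) and in 21 of 33 Control cells with Il2 (367 CPM, against 75.0 CPM in other T cells). Cd40lg, a helper molecule of activated CD4 T cells, was at 134 CPM in Il2-positive cells of the Control library and 23.3 CPM in its other T cells. In the DOPAC library it had 0 UMIs in the 25 cells with Il2 and 2.68 CPM in the other T cells; the interval of that ratio reached 9.33, so no difference was detectable there.

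Il2ra, the alpha chain of the high-affinity IL-2 receptor, was highest in regulatory T cells. It was at 421 CPM (98 UMIs) in the DOPAC library and 322 CPM (254 UMIs) in the Control library, a ratio of 1.31 (1.02 to 1.65), which was 7.16 times the CD8 level in the DOPAC library (5.76 to 8.80) and 7.70 times it in the Control library (6.44 to 9.20). The log2 ratio of 0.39 depended on the gate. With cells holding Cd8a or Cd8b1 UMIs let in, it was 0.01 at 1 or more Foxp3 UMIs (97 DOPAC and 95 Control cells) and 0.02 at 2 or more (40 and 70 cells), whereas at 2 or more Foxp3 UMIs without Cd8 UMIs it was 0.64 (22 DOPAC and 56 Control cells). Mature dendritic cells came second, with 202 CPM in the DOPAC library and 166 CPM in the Control library (ratio 1.22, 0.995 to 1.47); without the cells with melanoma RNA they had 204 CPM in the DOPAC library and 198 CPM in the Control library (ratio 1.03, 0.846 to 1.25). With all cells, that was 15.2 times the cDC1 level in the DOPAC library and 22.5 times it in the Control library.

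Conventional T cells held less Il2ra. CD4 T cells without Foxp3 had 113 CPM in the DOPAC library and 58.3 CPM in the Control library (ratio 1.94, 1.27 to 2.91), and CD8 T cells 58.8 and 41.9 CPM in the DOPAC and Control libraries (ratio 1.40, 1.22 to 1.61). Among naive-gene CD8 T cells the level was 33.0 CPM in the DOPAC library and 13.6 CPM in the Control library; this log2 ratio of 1.29 turned to -0.32 after thinning before gating, on 1 and 3 UMIs in the DOPAC and Control libraries. Checkpoint-gene cells had 60.6 CPM in the DOPAC library and 156 CPM in the Control library (ratio 0.389, 0.308 to 0.497), the Control value resting on 40 cells. NK cells had 21.6 CPM in the DOPAC library and 19.8 CPM in the Control library, and the interval of the ratio included 1 (0.775 to 1.52).

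Il2rb, the signalling chain of both cytokines, was highest in NK cells, at 941 CPM (2444 UMIs) in the DOPAC library and 945 CPM (5158 UMIs) in the Control library, and these values did not differ beyond counting error (ratio 0.996, 0.949 to 1.05). CD8 T cells did differ, with 577 CPM in the DOPAC library and 290 CPM in the Control library, 1.99-fold higher (1.89 to 2.09). The CD8 ratio was above 1 within naive-gene cells, at 449 CPM in the DOPAC library and 264 CPM in the Control library (1.70, 1.51 to 1.90), and within checkpoint-gene cells, at 611 and 345 CPM in the DOPAC and Control libraries (1.77, 1.53 to 2.07). Since these gates depend on depth, cells of 1 gate need not be in the same state in both libraries. NK cells exceeded CD8 T cells by 1.63 times in the DOPAC library (1.56 to 1.70) and 3.26 times in the Control library (3.08 to 3.44).

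Helper and regulatory T cells carried Il2rb as well. CD4 T cells without Foxp3 were at 401 CPM in the DOPAC library and 174 CPM in the Control library (ratio 2.30, 1.84 to 2.87), and regulatory T cells at 459 CPM in the DOPAC library and 349 CPM in the Control library (ratio 1.32, 1.04 to 1.65). At 1000 UMIs per cell, an Il2rb UMI was held by 42.5% of CD8 T cells in the DOPAC library (interval 40.8 to 44.2) and by 24.7% in the Control library (interval 21.5 to 28.2); the thinned shares of NK cells were 63.1% (59.4 to 66.7) and 59.3% (55.9 to 62.7) in the DOPAC and Control libraries.

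Myeloid cells held a low level of Il2rb that was higher in DOPAC in each of 6 classes. The ratios lay between 2.27 in mature dendritic cells (2.06 without the cells with melanoma RNA) and 6.10 in monocyte-type cells. B cells, set as a class that should lack Il2rb, had 22.1 CPM (17.1 to 28.1) in the Control library. The Control myeloid classes, at 14.6 CPM in cDC1 to 22.8 CPM in mature dendritic cells, were thus not above the B-cell interval. DOPAC B cells held 1 UMI in 26 cells, too few to compare. Macrophages had 70.9 CPM in the DOPAC library and 19.0 CPM in the Control library (ratio 3.74, 3.15 to 4.42), or 12.5% and 6.13% of the T-cell level in the DOPAC and Control libraries. Lymphocyte RNA was present beside it: 6 lymphocyte markers (Nkg7, Gzmb, Trbc2, Ms4a4b, Cd8b1 and Lck) summed to 292 CPM in DOPAC macrophages and 62.3 CPM in Control macrophages, 6.61% (single markers 3.60% to 8.67%) and 2.20% (1.31% to 3.36%) of their T-cell level. As percent of the T-cell level, Il2rb thus lay above the range of the markers in both libraries, and markers and gene were both higher in DOPAC. These percents take T cells as the only source. NK cells held more Il2rb than T cells, at 941 against 567 CPM in the DOPAC library and 945 against 310 CPM in the Control library. The part of lymphocyte RNA in the myeloid Il2rb ratios was not tested.

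**Figure D3:**
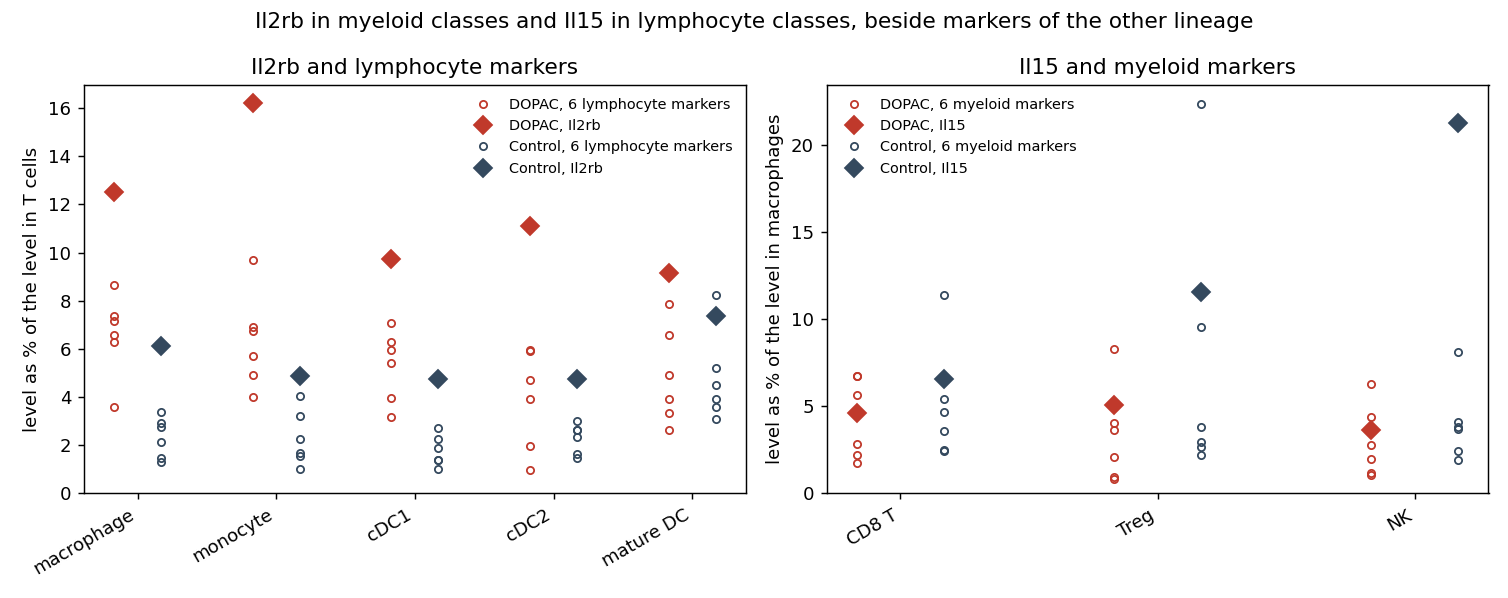
Level of Il2rb and of 6 lymphocyte markers as percent of their T-cell level in myeloid classes (left panel), and of Il15 and of 6 myeloid markers as percent of their macrophage level in lymphocyte classes (right panel). Filled diamonds are Il2rb or Il15 and open circles the markers, in the DOPAC library (red, left) and the Control library (dark blue, right); Il2rb in macrophages is at 12.5% in the DOPAC library and 6.13% in the Control library, and Il15 in NK cells at 3.64% and 21.3%.

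Il2rg, the common gamma chain shared with the receptors for IL-4, IL-7, IL-9 and IL-21, was spread most evenly. T cells had 189 CPM in the DOPAC library and 242 CPM in the Control library (ratio 0.778, 0.742 to 0.816), and NK cells 240 CPM in the DOPAC library and 288 CPM in the Control library (ratio 0.831, 0.756 to 0.913). In regulatory T cells the values were 283 CPM in the DOPAC library and 254 CPM in the Control library, with an interval that included 1 (0.832 to 1.48). Macrophages went the other way, with 153 CPM in the DOPAC library and 73.7 CPM in the Control library, 2.08-fold higher (1.86 to 2.31). The same direction was seen in monocyte-type cells, at 152 CPM in the DOPAC library and 90.7 CPM in the Control library (ratio 1.67, 1.49 to 1.87), and in cDC1, at 38.0 and 18.9 CPM in the DOPAC and Control libraries (ratio 2.01, 1.37 to 2.89). Values of cDC2 were 157 CPM in the DOPAC library and 150 CPM in the Control library and could not be told apart by counts (0.754 to 1.41). Macrophages with Cxcl9 exceeded those without it, at 180 and 112 CPM within the DOPAC library and 87.9 and 68.0 CPM within the Control library.

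**Figure D4:**
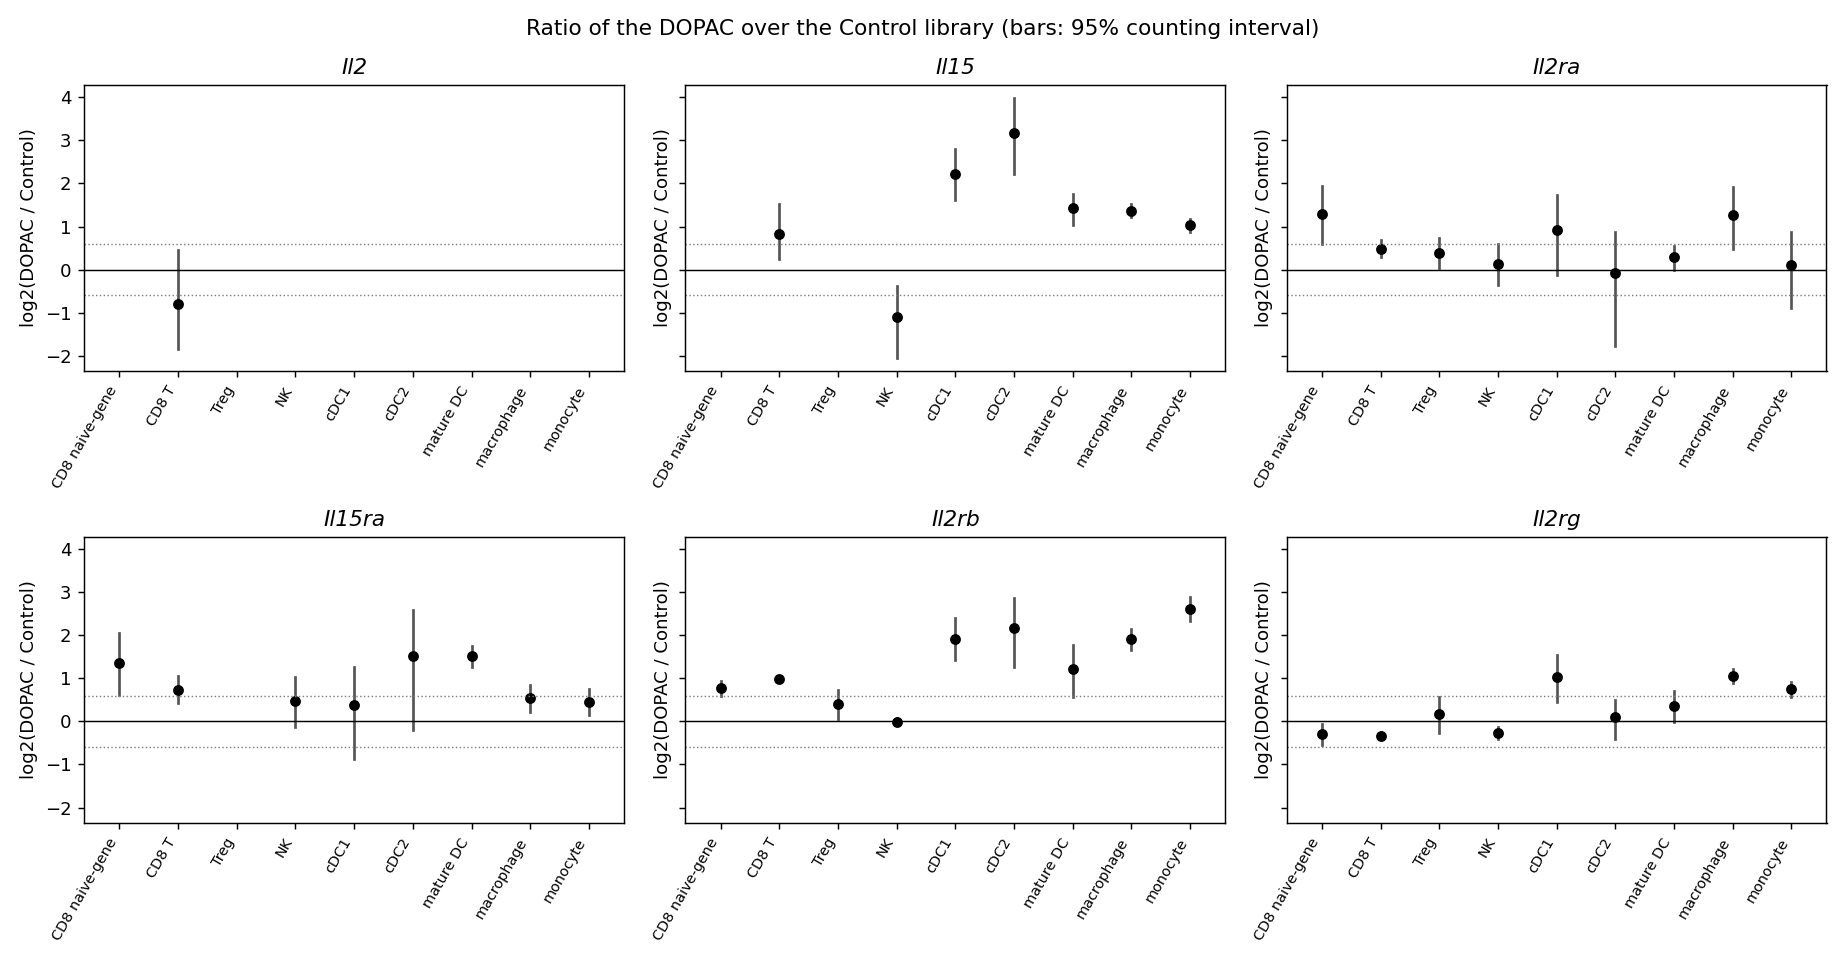
Log2 ratio of the DOPAC over the Control library (y axis, shared by all panels) for each gene by class (x axis); points are ratios with 1 count added to each sum, bars are 95% counting intervals, and dotted lines mark 1.5-fold. Pairs with under 20 UMIs in both sums together are not drawn; Il15 lies above 1.5-fold in all 5 myeloid classes drawn and below it in NK cells.

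RNA of all 3 chains of the high-affinity IL-2 receptor was also counted per cell. Without thinning, Il2ra, Il2rb and Il2rg were found together in 23 of 59 regulatory T cells of the DOPAC library (39.0%, 26.5 to 52.6) and in 37 of 69 of the Control library (53.6%, 41.2 to 65.7). The same held for 11.4% of CD8 T cells in the DOPAC library and 9.65% in the Control library, and for 4.19% and 4.81% of NK cells in the DOPAC and Control libraries. At 1000 UMIs per cell, 5 regulatory T cells of the DOPAC library and 1 of the Control library still held all 3, and the intervals overlapped (2.81% to 18.7% in the DOPAC library and 0.0367% to 7.81% in the Control library). The signalling pair Il2rb and Il2rg was found together in 15.8% of thinned NK cells in the DOPAC library (13.2 to 18.8) and 14.7% in the Control library (12.3 to 17.3). In thinned CD8 T cells the pair was found in 7.80% in the DOPAC library (6.91 to 8.76) and 5.71% in the Control library (4.09 to 7.72), and these intervals overlapped.

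Against all genes of a class, the set can be counted at a ratio of 1.5 or more, with 1 count added to each sum. This was done for genes with at least 20 UMIs in both libraries together. In macrophages 4 of 5 countable genes (Il15, Il2ra, Il2rb and Il2rg) were higher in DOPAC and 0 lower, where 16.8% of 12759 genes were higher and 16.8% lower. Il2ra there was low, at 7.96 CPM (22 UMIs) in the DOPAC library and 3.42 CPM (86 UMIs) in the Control library. Lymphocyte markers were also higher in DOPAC macrophages, and the part of lymphocyte RNA in the Il2ra and Il2rb calls was not tested. Dendritic cells together had 3 of 5 higher (Il15, Il15ra and Il2rb), where 15.4% of all genes were higher; in mature dendritic cells the same 3 were higher, where 16.3% were. No countable gene of the set was lower in either, where 21.0% of genes were lower in dendritic cells together and 29.9% in mature dendritic cells. Without the cells with melanoma RNA the same 3 genes were higher in mature dendritic cells, where 18.8% of genes were higher and 19.0% lower. In cDC1, 4 of 5 were higher (Il15, Il2ra, Il2rb and Il2rg) against 19.6% of genes, in cDC2 3 of 5 (Il15, Il15ra and Il2rb) against 21.4%, and in monocyte-type cells 3 of 5 (Il15, Il2rb and Il2rg) against 17.4%; 0 were lower in these classes, against 14.3%, 19.4% and 13.7% of genes. T cells had 3 of 6 higher (Il15, Il15ra and Il2rb, of which Il15 stood at the percent of the myeloid markers), where 15.4% of genes were, and 1 lower (Il2), where 22.9% were. CD8 T cells gave the same 3 higher and Il2 lower, against 17.7% and 21.7% of genes. CD4 T cells without Foxp3 had 2 of 4 higher (Il2ra and Il2rb), where 20.3% of genes were, and 0 lower, where 19.1% were. NK cells had 0 of 5 higher, where 12.2% of genes were, and 1 lower (Il15), where 18.6% were. Of these calls, the counting intervals of Il2 in CD8 T cells, Il2ra in cDC1 and Il15ra in cDC2 included 1. In regulatory T cells 0 of 3 passed either way, where 18.4% of genes were higher and 18.7% lower. The median log2 ratio over all genes lay between -0.13 in mature dendritic cells (0.04 without the cells with melanoma RNA) and 0.08 in cDC1 for the classes counted here.

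The same class led in both libraries for Il15, Il2ra, Il15ra and Il2rb, but not for Il2 and Il2rg. Il2 was highest in CD8 T cells in the DOPAC library and in CD4 T cells without Foxp3 in the Control library. The DOPAC order was not settled by counts. CD8 T cells had 1.09 CPM there, whereas the interval of CD4 T cells without Foxp3, on 0 UMIs, reached 10.4 CPM. Il2rg was highest in regulatory T cells in the DOPAC library (283 CPM) and in B cells in the Control library (291 CPM), and in both libraries the interval overlapped that of the next class. For Il15, monocyte-type cells, macrophages and mature dendritic cells led in both; their Poisson intervals overlapped in the DOPAC library (165 to 197, 154 to 185 and 117 to 181 CPM) but not in the Control library (83.4 to 94.5, 62.3 to 68.7 and 49.8 to 61.5 CPM); without the cells with melanoma RNA the Control interval of mature dendritic cells, 57.4 to 71.2 CPM, overlapped that of macrophages. For Il2ra, regulatory T cells, mature dendritic cells and CD4 T cells without Foxp3 followed each other without overlap in both libraries. For Il2rb the order after NK cells was CD8 T, then regulatory T cells in the DOPAC library, and regulatory T, then CD8 T cells in the Control library. Neighbours in the Il2rg order overlapped among regulatory T, NK and CD4 T cells in both.

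Likeness to other genes was measured as Pearson's r of log2(CPM + 1) over 26 class sums of both libraries, among 10630 genes; the sums share libraries and depth, so r is a description. Il2rb was most like Nkg7 (0.99), a granule gene of cytotoxic lymphocytes, followed by Cysltr2 and Ctla2a (both 0.98). Il15 was most like Anxa4, Tlr13 and Klf6 (0.89 each). Il2ra was most like Tnfrsf4 (0.86), the costimulatory receptor OX40, then Dnajc1 and Nrip1 (0.85 each). Il15ra was most like Kpna3 (0.84), Pfkfb3 (0.83) and Chpt1 (0.81). Il2rg was most like Mycbp2 (0.87), Sidt2 and Trpm7 (0.85 each). For Il2, which was itself below the UMI minimum, the leading genes were Dapl1 (0.78), Ndrg3 (0.75) and Rflnb (0.72). Within the set, Il15 and Il15ra had an r of 0.58 and Il2rb and Il2rg of 0.66, whereas Il2ra and Il15ra, neighbours on the chromosome, had 0.20.

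A list of 30 other genes of the pathway (related cytokines and receptors, signal transducers, feedback and target genes) gave the surroundings of the set. In T cells 28 of 30 had enough UMIs, 3 were at least 1.5-fold higher in DOPAC (15.4% of all genes were) and 12 lower (22.9% of all genes), with a median log2 ratio of -0.43 beside -0.09 over all genes. Stat3, a transducer of IL-21 and IL-6 signals, was higher, at 1351 CPM in the DOPAC library and 731 CPM in the Control library (ratio 1.85, 1.81 to 1.89), and Prdm1, the effector factor Blimp-1, was at 40.9 CPM in the DOPAC library and 23.6 CPM in the Control library (1.74, 1.52 to 1.99). The survival genes Il7r and Bcl2 were lower. Il7r was at 51.7 CPM in the DOPAC library and 360 CPM in the Control library, 6.96-fold lower (6.53 to 7.43). Within naive-gene CD8 T cells Il7r was 2.38-fold lower (2.03 to 2.81). The part of class make-up in the T-cell ratios was not tested. The cytokine Il4 had 1 UMI in DOPAC T cells and 49 UMIs in Control T cells, a ratio of 0.0101 (0.000251 to 0.0590).

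CD8 T cells had 4 of 25 higher, where 17.7% of all genes were, and 10 lower, where 21.7% were. Socs2, a feedback inhibitor induced through STAT5, was higher, at 10.6 CPM in the DOPAC library and 2.15 CPM in the Control library (ratio 4.94, 2.83 to 9.44). Bcl2 was 6.88-fold lower (6.42 to 7.37), at 60.8 CPM in the DOPAC library and 418 CPM in the Control library. Within naive-gene CD8 T cells the Socs2 ratio was 12.4 (4.29 to 43.7) and Bcl2 was 2.59-fold lower (2.24 to 3.01). The part of CD8 make-up in the CD8 ratios was not tested. Of the STAT5 pair, Stat5b was at 125 CPM in the DOPAC library and 305 CPM in the Control library (2.43-fold lower, 2.29 to 2.58), and Stat5a was at 90.1 and 92.2 CPM in the DOPAC and Control libraries, with an interval that included 1 (0.889 to 1.08). In NK cells 1 of 25 was higher and 11 were lower, where 12.2% of all genes were higher and 18.6% lower. Stat5a was the higher one, at 112 CPM in the DOPAC library and 68.3 CPM in the Control library (1.65, 1.41 to 1.92), and Socs3, a feedback inhibitor of STAT3 signals, was 3.38-fold lower (2.70 to 4.28), at 33.5 CPM in the DOPAC library and 113 CPM in the Control library. Regulatory T cells had 1 of 24 higher, Prdm1, and 4 lower, where 18.4% of all genes were higher and 18.7% lower, so the share of lower genes was near that of all genes.

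The balance was the other way in macrophages, where 7 of 25 were higher and 1 lower (16.8% of all genes were higher and 16.8% lower), and the median log2 ratio was 0.17 beside -0.01 over all genes. Irf1, an interferon-induced factor known to drive Il15 transcription, was at 211 CPM in the DOPAC library and 106 CPM in the Control library (1.99, 1.81 to 2.17). Its level in mature dendritic cells was 285 CPM in the DOPAC library and 178 CPM in the Control library (1.60, 1.35 to 1.89), a ratio of 1.38 without the cells with melanoma RNA (1.17 to 1.63). In T cells Irf1 was lower, at 129 CPM in the DOPAC library and 237 CPM in the Control library (1.83-fold lower, 1.74 to 1.93). Socs1, a feedback inhibitor induced by interferon gamma, was higher in macrophages, at 40.9 CPM in the DOPAC library and 19.8 CPM in the Control library (2.07, 1.67 to 2.54), and Socs3 was lower, at 84.6 CPM in the DOPAC library and 135 CPM in the Control library (1.60-fold lower, 1.40 to 1.83). Lck, a lymphocyte kinase and 1 of the lymphocyte markers above, was at 15.2 CPM in DOPAC macrophages and 4.73 CPM in Control macrophages. Mature dendritic cells had 4 of 25 higher and 2 lower, where 16.3% of all genes were higher and 29.9% lower, so the share of higher genes was near that of all genes. Socs2 was at 642 CPM there in the DOPAC library and 259 CPM in the Control library (2.47, 2.20 to 2.77), and without the cells with melanoma RNA at 650 and 306 CPM in the DOPAC and Control libraries (2.12, 1.89 to 2.38).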

How the data were processed

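The authors deposited raw UMI counts per gene and barcode, whole numbers that were not normalized; per the file headers the matrices come from Cell Ranger 7.0.1, on GRCm38 per the submitters' processing notes. The labels' protocol speaks of colon tissue and bead capture; the tissue label and design text (tumor, 10x Chromium) were followed.

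From these counts, cells were kept that had 500 or more UMIs, 200 or more genes and no more than 10% mitochondrial UMIs. A cell took the lineage whose marker panel had at least 2 UMIs and at least 3 times the UMIs of every other panel; this rule also served against doublets, and no doublet caller was run. Macrophages needed at least 3 C1q UMIs. UMIs were summed per class and library and given as CPM with exact Poisson intervals. Reported log2 ratios and calls at 1.5-fold had 1 count added to each sum, whereas ratios printed as folds had none. Ratios had conditional binomial intervals and shares Clopper-Pearson intervals (95%). Beside a count of 0 the limit is 3 counts of the total. Molecules of 1 cell and cells of 1 mouse are not independent, so intervals and floors cover counting error only. Thinning drew 1000 UMIs per cell (seed 1); at full depth the T gate left out 44 DOPAC cells and 1 Control cell under that total. The marker sums, the named pathway genes (up to 3 a direction per class with the largest ratio whose interval left out 1; Stat5a, Stat5b, Irf1 and Lck beyond it were chosen after their values were seen) and the classes follow fixed lists, but the genes and lists were chosen with earlier results of these data known, and the lists of lymphocyte and myeloid RNA after the data were seen. The scripts were tested on simulated data. Alternatives varied the gates, depth, scaling and cells left out. Python 3.11.15, numpy 2.4.6, scipy 1.17.1, pandas 2.3.3 and matplotlib 3.10.9 were used.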

Additional observations from a re-analysis of the deposited data

Results flagged for a closer look

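Il15 had opposite directions in different classes. Its log2 ratio of DOPAC over Control was 1.30 in T cells, 1.74 in dendritic cells and 1.37 in macrophages, against -1.11 in NK cells. Il15 in T cells stood at 5.07% of its macrophage level in the DOPAC library and 5.22% in the Control library, about the percent of 6 myeloid markers there (5.56% and 5.06%), so the part of myeloid RNA in the T-cell ratio was not tested. With 1 library per group the difference between classes was not tested; the NK value rests on 16 UMIs in the DOPAC library and 76 UMIs in the Control library.

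Cells that fitted no class also held these genes. In DOPAC cells of no class Il15 was at 58.1 CPM and Il2rb at 486 CPM, against 32.6 and 216 CPM in Control cells of no class. Such cells made up 35.0% of the DOPAC library and 18.2% of the Control library.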

How the results depend on the processing

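Over all alternatives, 488 further log2 ratios were computed. Of these, 437 stayed within the counting interval of the reported value and 48 left it. A further 3 changed sign where the reported ratio was at least 1.5-fold with an interval that left out 1. Sign changes of other ratios were not counted apart, such as Il2ra in T cells, from -0.14 to 0.37 on thinning before gating. Of 588 shares, 531 stayed within their interval; each alternative that leaves cells out also redraws the UMIs kept in thinning. The 3 counted changes of sign all came when cells were thinned to 1000 UMIs before gating, which left few UMIs. They were Il15 in NK cells at 0.53, and Il2ra and Il15ra in naive-gene CD8 T cells at -0.32 each. That setting gave 2.12 for Il15 and 1.19 for Il15ra in dendritic cells, 1.78 and 0.93 for the same genes in macrophages, -3.76 for Il2 in T cells, 1.54 for Il2ra in regulatory T cells (17 DOPAC and 11 Control cells) and 1.49 for Il2rb in CD8 T cells. Without the cells of highest totals, Il15ra in dendritic cells was 1.72 and Il2 in T cells -1.29; without the T cell with most Il2 in each library Il2 was -1.58. Averaging cDC1, cDC2 and mature dendritic cells gave 2.26 for Il15 and 1.14 for Il15ra. Letting in cells with Cd8 UMIs gave 0.01 for Il2ra in regulatory T cells at 1 or more Foxp3 UMIs and 0.02 at 2 or more, the mean of the cells' own CPM 1.08 for Il2rb in CD8 T cells, and centring on the median of all genes 0.08 for Il2rb in NK cells and -0.27 for Il2rg in T cells. Beyond fewer cells and UMIs under thinning, the cause was not tested.

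Counts of genes at least 1.5-fold apart were smaller with 100 UMIs required or after thinning, since fewer genes were counted. For genes higher in DOPAC the reported counts were 1293 in NK cells, 2018 in dendritic cells, 2142 in macrophages and 1125 in regulatory T cells; with 100 UMIs they were 585, 1012, 1080 and 242, and after thinning 520, 881, 789 and 42. For genes lower in DOPAC the reported counts were 1970 in NK cells, 3079 in T cells and 1144 in regulatory T cells, which became 1148, 1964 and 297 with 100 UMIs and 735, 1850 and 43 after thinning; dendritic cells and macrophages, at 2762 and 2140, became 917 and 732 after thinning. Removal of shared barcodes, removal of cells with melanoma RNA, 2 of the 3 other Foxp3 gates, centring, the removal of the top Il2 cell and the dendritic average were chosen after seeing the data. No paired analysis was possible because each group is 1 library, and no replicate could be left out.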
